A study of Homo sapiens with 4 samples.

Results

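The set described here holds 42 genes of the WNT pathway: secreted ligands, their receptors and co-receptors, inhibitors, the intracellular relay and the nuclear factors, several of which are also pathway targets. Genes were listed by name, and each was represented by its brightest probe, the one with the highest mean signal over the 4 arrays. Of the 42 genes, 40 had a probe named for them, against 20042 genes with a named probe in the whole series. PORCN and TCF7 had no probe named for them in the annotation used and have no expression values here. Of the 40, 26 had a probe detected on at least 2 arrays, called a kept probe, and entered the test over 11311 genes, and the other 14 are described by signal only. Detected means a detection p-value under 0.05, that is, a probe signal above that of most negative control beads on the same array.

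The knockout group was 2 samples of MDA-MB-468 cells labelled mH2A1.2 knockout, and the wild type group was 2 samples of the same line labelled wild type. MDA-MB-468 is an established human breast cancer line, and mH2A1.2 is the histone variant macroH2A1.2, a splice form of the gene MACROH2A1. The series title connects mH2A1.2 with osteoclast formation and with EZH2, the methyltransferase that places the H3K27me3 mark. RNA was hybridised to Illumina bead arrays whose column names share 1 barcode. The sources used here do not give how the knockout was made or whether the cells are 1 clone, and the design text calls the gene depleted. No label ties the replicates to separate cultures, so the spread behind each p-value may be technical.

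WNT proteins are secreted lipid-modified ligands that bind Frizzled receptors together with the co-receptors LRP5 or LRP6. In the canonical branch this stops a complex of AXIN, APC and GSK3B from marking beta-catenin, the product of CTNNB1, for destruction, and beta-catenin then works with TCF and LEF factors on target genes. Other branches act through ROR and RYK receptors on cell polarity and calcium. In breast cancer that spreads to bone the pathway is known for its inhibitor DKK1, which restrains bone-forming osteoblasts.

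The 4 arrays detected between 18753 and 19817 of 47230 probes, and knockout replicate 2 lay farthest from the wild type arrays. Of the 11311 genes, 377 and 418 were over 2-fold apart between knockout replicate 1 and each wild type array, and 1548 and 1186 between knockout replicate 2 and each. MACROH2A1, the targeted gene, had log2 signals of 12.32 and 12.12 in knockout and 13.04 and 12.96 in wild type at its brightest probe, ILMN_2373495, a difference of -0.78 ± 0.14 (SE, n = 2 per group; limma adjusted p = 0.130). ILMN_1746171 read the same way, by -1.03. Another of its probes, ILMN_1674034, read the other way, with 9.71 and 9.30 in knockout and 8.89 and 8.56 in wild type, so the labels are checked only in part. Which splice forms these probes reach is not known from the files. Of 7 named markers listed for the line, EGFR, KRT8, KRT18, KRT19 and EPCAM were detected on all 4 arrays. The brightest probes of KRT5 and CDH1 were detected on none. The summed signal of the 7 was 6572 to 6704 in knockout and 3656 to 4342 in wild type. KRT19 alone gave 2952 and 3106 in knockout and 605 and 1100 in wild type, a log2 difference of 2.23 (limma unadjusted p = 0.00307). KRT8 differed by 0.51 (limma unadjusted p = 0.0187), EGFR by 0.58 (limma unadjusted p = 0.177), EPCAM by 0.08 and KRT18 by -0.11. The hormone receptor gene PGR was not detected, and ESR1 was detected on both knockout arrays and neither wild type array. The summed signal of 7 fibroblast markers was 1139 to 1176 in knockout and 1027 to 1058 in wild type, with PDGFRB detected on all 4 arrays and 3 others on some. PDGFRB differed by 1.09 (limma unadjusted p = 0.0174) and COL1A1, detected on both knockout arrays and neither wild type array, by 0.27, while the brightest probes of COL3A1, DCN and LUM were detected on no array. The summed signal of 6 leukocyte markers was 1080 to 1279 in knockout and 951 to 1044 in wild type, with CD14 and LAPTM5 detected on all 4 arrays and PTPRC, CD3E and LYZ on none. CD14 differed by 1.27 (limma unadjusted p = 0.0172) and LAPTM5 by 0.46 (limma unadjusted p = 0.255). None of 4 endothelial markers was detected, at a summed 486 to 517 in knockout and 498 to 542 in wild type. The part of these in the results below was not tested. In such bulk samples, fewer cells of a type and less RNA per cell cannot be told apart.

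No WNT member passed the test of knockout against wild type after adjustment over all genes, and the members called without adjustment were 3 lower and 1 higher in knockout. The adjusted p-value (limma, Benjamini-Hochberg) was under 0.05 for 0 of the 26 tested members, against 0% of all 11311 genes. At an unadjusted limma p under 0.05 there were 4 members (15.4%), DKK3, FZD4 and LEF1 lower and LRP5 higher, against 20.2% of all genes, made up of 9.63% higher and 10.5% lower. The members' share is near the background, so their count is not a result about the pathway. Of all unadjusted calls 47.7% were higher in knockout; with the arrays scaled to equal medians instead of quantiles the median difference over all genes was 0.12 and 86.0% of the calls were higher, so values given under median scaling include this shift unless taken relative to it. The median log2 difference was -0.02 over the tested members and -0.01 over all genes tested. In 17 members (65.4%) the knockout and wild type values did not overlap, 7 above and 10 below wild type, against 54.1% of all genes, made up of 25.9% above and 28.2% below. DKK3 passed the detection filter through wild type alone, and WNT7B and RNF43 through knockout alone.

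**Figure D1:**
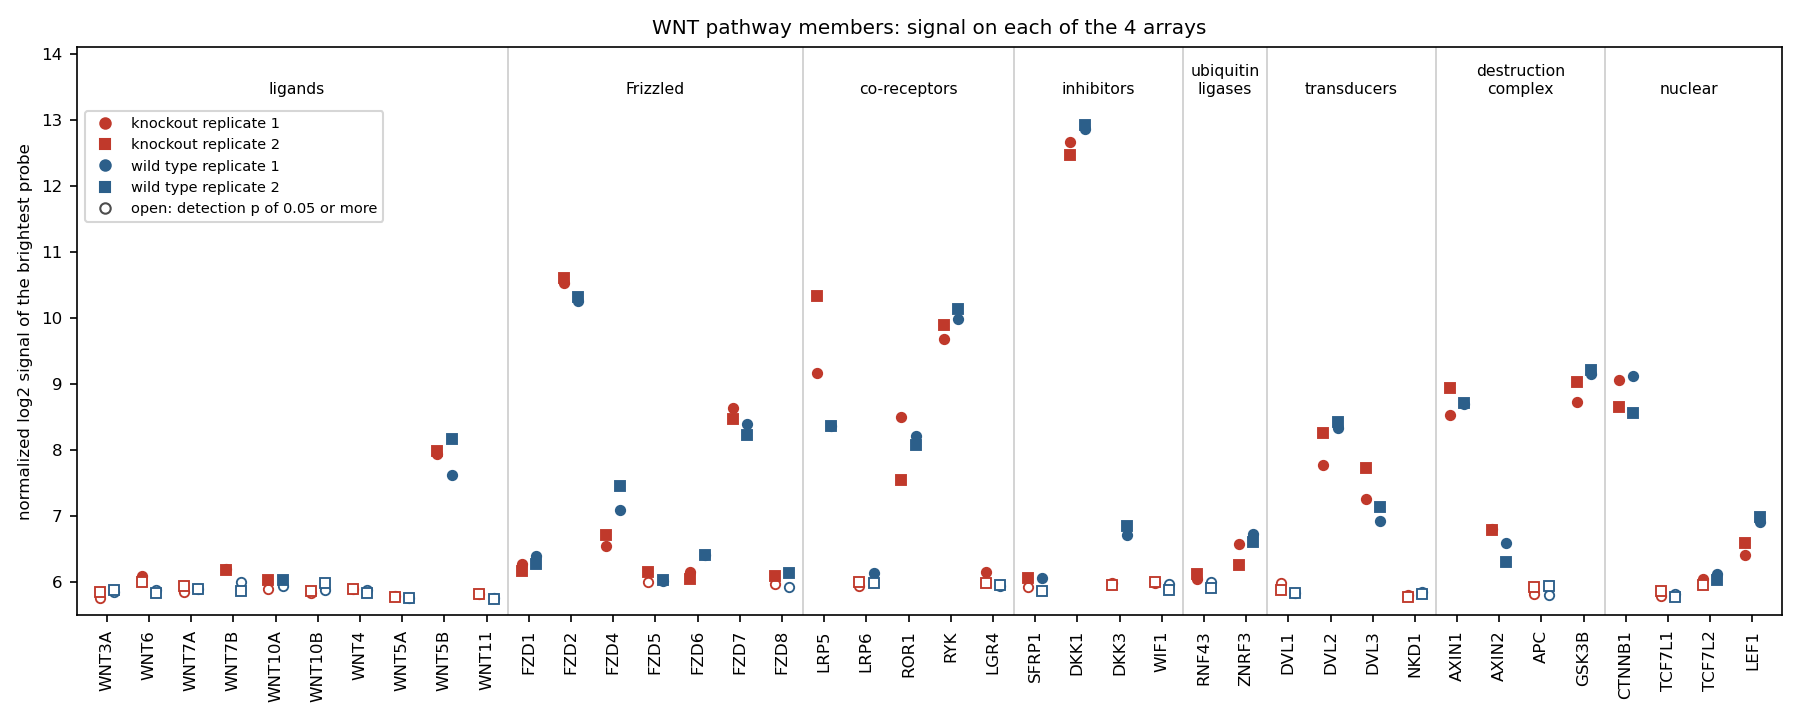
Normalized log2 signal (y axis) of the brightest probe of each of the 40 WNT members (x axis, grouped by role) on the 2 knockout arrays (red, left of each pair) and the 2 wild type arrays (blue, right). Open symbols have a detection p of 0.05 or more. Among the ligands only WNT5B has filled symbols on all 4 arrays, DKK3 is open in knockout and filled in wild type, and the knockout arrays of LRP5 lie apart from each other and above wild type.

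The promoter sequences of FZD4, LRP5, LEF1 and DKK1 are shown to set their CpG content beside their values, since these 4 have RefSeq promoter entries among the 8 members with the smallest p. Each is the 250 bases before the first start listed for the gene in RefSeq's table (GRCh38.p14). Any further starts of a gene were not used. The bases run 5′ to 3′ on the gene's strand, with CpG dinucleotides, the sites at which vertebrate DNA is methylated, in capitals. FZD4 lies at chr11:86955396-86955645 on the minus strand, LRP5 at chr11:68312341-68312590 on the plus strand, LEF1 at chr4:108166302-108166551 on the minus strand and DKK1 at chr10:52314031-52314280 on the plus strand.
FZD4: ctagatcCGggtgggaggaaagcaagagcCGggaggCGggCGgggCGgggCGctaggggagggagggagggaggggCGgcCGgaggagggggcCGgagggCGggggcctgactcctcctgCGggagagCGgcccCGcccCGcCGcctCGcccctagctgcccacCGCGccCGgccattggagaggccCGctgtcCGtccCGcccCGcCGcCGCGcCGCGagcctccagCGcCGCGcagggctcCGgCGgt
LRP5: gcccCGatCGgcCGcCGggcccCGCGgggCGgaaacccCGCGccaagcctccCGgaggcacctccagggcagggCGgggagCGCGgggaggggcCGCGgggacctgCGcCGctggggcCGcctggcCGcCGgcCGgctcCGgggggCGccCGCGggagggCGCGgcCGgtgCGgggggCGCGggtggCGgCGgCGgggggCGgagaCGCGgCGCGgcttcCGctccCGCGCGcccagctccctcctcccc
LEF1: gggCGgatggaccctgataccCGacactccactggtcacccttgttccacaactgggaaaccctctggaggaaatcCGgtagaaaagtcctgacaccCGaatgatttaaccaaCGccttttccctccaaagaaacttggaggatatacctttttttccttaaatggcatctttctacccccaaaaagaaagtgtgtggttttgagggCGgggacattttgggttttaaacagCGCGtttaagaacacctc
DKK1: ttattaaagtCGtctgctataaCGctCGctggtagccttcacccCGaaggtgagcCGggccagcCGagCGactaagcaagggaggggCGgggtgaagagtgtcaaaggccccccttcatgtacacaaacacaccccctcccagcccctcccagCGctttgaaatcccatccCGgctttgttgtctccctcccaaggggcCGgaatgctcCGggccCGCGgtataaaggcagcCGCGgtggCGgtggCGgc
The printed stretches hold 33 CpGs for FZD4, 43 for LRP5, 8 for LEF1 and 18 for DKK1. Windows that also take in 50 bases after the start were found for 30 of the listed members, PORCN and TCF7 among them. Their median was 31 CpGs, against 14 in all 35116 promoters of that length. Each member counts with a single window, the first listed, whereas the 35116 hold every such window, so the sides are not built alike. The core motif of TCF and LEF factors, searched as CTTTGAT on both strands, was in 0 of the 30 members' windows and in 2.62% of all. That says only that these letters are not in these windows.

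Among the ligands, WNT5B was the one detected on every array, and its groups overlapped. Of the 10 listed, 6 were detected on no array: WNT3A, WNT7A and WNT10B, known for canonical signalling, and WNT4, WNT5A and WNT11, often active in other branches. WNT5B, a ligand of the non-canonical branch, had log2 signals of 7.94 and 7.98 in knockout and 7.63 and 8.17 in wild type. Its knockout values fell between the wild type values, and the difference was 0.06 ± 0.22 (SE, n = 2 per group). WNT10A was detected on 1 array of each group, and its groups overlapped. WNT6 was detected on knockout replicate 1 alone, at a signal of 162 against 147 on knockout replicate 2 and 134 and 131 on the wild type arrays.

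WNT7B, a canonical ligand, was detected on both knockout arrays and neither wild type array. Its signals were 175 and 168 in knockout and 148 and 135 in wild type. The groups did not overlap, but the difference of 0.26 ± 0.12 on the log2 scale did not pass (limma unadjusted p = 0.101, adjusted p = 0.332). A probe not detected in a group has only a bound there, taken against the lowest signal of a detected probe or the probe's own, whichever is higher. For WNT7B the probe's own signals were the higher, so this returned the estimate, 1.19-fold, and set no lower limit. The lowest signal of a detected probe is no detection limit here, since undetected probes also lie above it. On wild type replicate 1 it was 5.72 on the log2 scale, and WNT5A, not detected, read 5.76. It makes no allowance for error. The 95% interval of the log2 difference was -0.08 to 0.59, which spans both directions. Its dimmer probe, detected on no array, also read higher in knockout, by 0.15.

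The 7 Frizzled receptors, which bind WNT ligands at the cell surface, were all tested: 3 differences were positive and 4 negative, with a median of -0.0041. FZD4, which also serves as the receptor for norrin in blood vessels of the retina, had log2 signals of 6.56 and 6.72 in knockout and 7.10 and 7.46 in wild type. Both knockout arrays lay below both wild type arrays, at signals of 210 and 220 against 262 and 317. The difference was -0.64 ± 0.18 (SE, n = 2 per group), 1.56-fold lower, with a limma unadjusted p of 0.0209 and an adjusted p of 0.182. It was -0.42 under median scaling, with a limma unadjusted p of 0.229 (-0.55 relative to the shift), and -0.46 without wild type replicate 2 (limma unadjusted p = 0.132), and with no background correction it was -0.39.

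FZD6 and FZD2 differed in opposite directions by smaller amounts, and neither passed. FZD6, known for its part in planar cell polarity, had log2 signals of 6.16 and 6.05 in knockout and 6.42 and 6.41 in wild type. All its knockout values lay below wild type, by 0.31 ± 0.12 on the log2 scale (limma unadjusted p = 0.0581, adjusted p = 0.263). Its signals were near background, at 170 and 152 in knockout and 193 and 197 in wild type. A filter that asks for a detection p under 0.01 on all 4 arrays left FZD6 untested. FZD2 had log2 signals of 10.53 and 10.61 in knockout and 10.26 and 10.31 in wild type. Its knockout values lay above wild type, by 0.29 ± 0.12 (limma unadjusted p = 0.0702, adjusted p = 0.281), and by 0.35 relative to the shift under median scaling. FZD7 read the same way as FZD2, at 8.64 and 8.48 in knockout and 8.39 and 8.24 in wild type, a difference of 0.24 ± 0.14. FZD1 differed by -0.12, FZD5 by 0.05 and FZD8 by -0.0041, the last of these with the sign turned under median scaling and FZD5 with the sign turned relative to the shift.

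LRP5, a single-pass co-receptor for WNT and a regulator of bone mass, had the largest difference among the tested members. Its log2 signals were 9.17 and 10.34 in knockout and 8.37 and 8.37 in wild type, and its signals 709 and 1297 in knockout and 465 and 487 in wild type. Both knockout arrays lay above wild type, and they lay over 2-fold apart, unlike those of the other 25 tested members. The difference was 1.38 ± 0.42 (SE, n = 2 per group), 2.61-fold, with a 95% interval of 0.24 to 2.53, a limma unadjusted p of 0.0281 and an adjusted p of 0.200. Without knockout replicate 2 it was 0.80 (limma adjusted p = 0.0560), and without knockout replicate 1 it was 1.97 (limma adjusted p = 0.00574). Those fits assume that the lone knockout array varies like the wild type arrays. Without wild type replicate 1 or 2 the value was 1.38 each time, at limma unadjusted p-values of 0.0966 and 0.0968. The gene's dimmer probe, detected on both knockout arrays and neither wild type array, differed by 0.35, with 6.05 and 6.43 in knockout and 5.91 and 5.86 in wild type. The mean of the probes differed by 0.87.

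The other receptors outside the Frizzled family had unadjusted p-values over 0.05 or were not tested. LRP6, the other co-receptor, was detected on wild type replicate 1 alone and LGR4, a receptor for R-spondins, on knockout replicate 1 alone. ROR1, a receptor tyrosine kinase that binds WNT5A, had log2 signals of 8.51 and 7.56 in knockout and 8.21 and 8.07 in wild type. One knockout array lay above and the other below wild type, at 0.37 and -0.58 from its mean. The difference of -0.11 ± 0.35 changed sign under median scaling and at its other kept probe, which read 8.01 and 6.35 in knockout and 7.27 and 6.75 in wild type. RYK, a receptor of the non-canonical branch, read 9.67 and 9.89 in knockout and 9.99 and 10.14 in wild type, a difference of -0.28 ± 0.15 (limma unadjusted p = 0.124) that was -0.21 relative to the shift under median scaling.

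**Figure D2:**
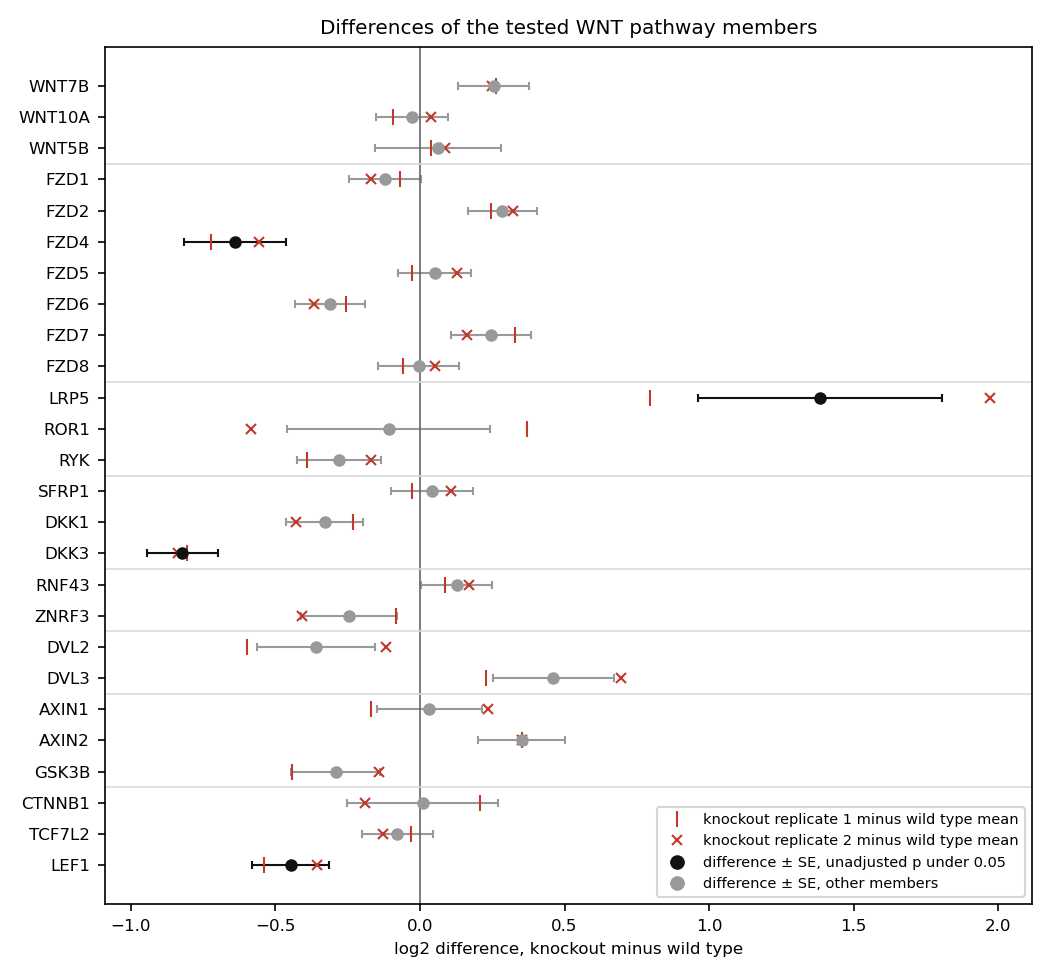
Log2 difference, knockout minus wild type (x axis), of the 26 tested WNT members (y axis, in order of role), with the moderated standard error as bars and n = 2 arrays per group. Black points have an unadjusted p under 0.05; red bars and crosses give knockout replicates 1 and 2 against the wild type mean, which lie on opposite sides of 0 for 7 members, ROR1 among them.

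Of the secreted inhibitors, DKK3 and DKK1 read lower in knockout. DKK3, a Dickkopf-family protein often silenced in tumours, had log2 signals of 5.98 and 5.95 in knockout and 6.72 and 6.86 in wild type. Its signals were 149 and 142 in knockout, neither well above background, and 224 and 244 in wild type, both detected. The groups did not overlap. The closeness of the knockout values says little about replicate agreement, since DKK3 was detected on neither knockout array. The difference was -0.82 ± 0.12 (SE, n = 2 per group), with a limma unadjusted p of 0.00221 and an adjusted p of 0.125, but DKK3 passed the filter only where it was high. The bound for DKK3 returned the estimate, 1.77-fold lower in knockout, since the probe's own signals lay above the lowest of a detected probe. That lowest value is no detection limit, as undetected probes also lie above it. The bound is therefore not informative. The bound set no lower limit. The 95% interval of the log2 difference was -1.16 to -0.49. Another kept probe of DKK3 was detected on both wild type arrays and neither knockout array, so it too passed the filter only where it was high. It read 5.91 and 5.98 in knockout and 6.36 and 6.55 in wild type, a difference of -0.51. The gene's other 2 probes, near background, differed by -0.09 and -0.03, with overlapping groups. A filter that asks for a detection p under 0.01 on all 4 arrays left DKK3 untested.

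DKK1, which blocks LRP5 and LRP6, had signals of 6835 and 5195 in knockout and 7873 and 8217 in wild type. Its log2 values were 12.66 and 12.46 in knockout and 12.86 and 12.91 in wild type, with no overlap. The difference was -0.33 ± 0.13 (SE, n = 2 per group; limma unadjusted p = 0.0670, adjusted p = 0.277), and its dimmer probe read -0.67, with 6.27 and 6.17 in knockout and 6.92 and 6.87 in wild type. With the mean of both probes it was -0.50 (limma unadjusted p = 0.0125, adjusted p = 0.161), whereas under median scaling it was -0.12, or -0.25 relative to the shift. Without knockout replicate 1 it was -0.43 (limma unadjusted p = 0.0254) and without knockout replicate 2 it was -0.23 (limma unadjusted p = 0.151). SFRP1, which binds WNT ligands outside the cell, was detected on 1 array of each group and differed by 0.04 ± 0.14. WIF1, another such binder, was detected on no array.

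RNF43 and ZNRF3, ubiquitin ligases that clear Frizzled receptors from the membrane and are themselves pathway targets, did not pass. RNF43 was detected on both knockout arrays and neither wild type array, with signals of 157 and 161 in knockout and 149 and 140 in wild type. Its bound likewise returned the estimate, 1.09-fold (limma unadjusted p = 0.354), and set no lower limit. The 95% interval of the log2 difference was -0.21 to 0.46, which spans both directions. ZNRF3 read 6.58 and 6.26 in knockout and 6.73 and 6.60 in wild type, a difference of -0.25 ± 0.17 (limma unadjusted p = 0.207). It was -0.41 without knockout replicate 1, where the unadjusted limma p was under 0.05, and -0.08 without knockout replicate 2.

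The Dishevelled genes, whose proteins pass the signal on from Frizzled, went different ways. DVL3 had log2 signals of 7.26 and 7.73 in knockout and 6.93 and 7.14 in wild type, a difference of 0.46 ± 0.21 (limma unadjusted p = 0.0894, adjusted p = 0.310). It was 0.23 on knockout replicate 1 and 0.69 on knockout replicate 2 against the wild type mean. DVL2 had 7.78 and 8.26 in knockout and 8.33 and 8.43 in wild type, a difference of -0.36 ± 0.20 (limma unadjusted p = 0.150), or -0.21 relative to the shift under median scaling. In both genes knockout and wild type did not overlap, and the spread between the knockout arrays was wide beside the difference. DVL1 and NKD1, a feedback inhibitor that binds Dishevelled, were detected on no array.

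In the destruction complex, AXIN2, a scaffold that is also a widely used readout of canonical signalling, read slightly higher in knockout. Its log2 signals were 6.80 and 6.80 in knockout and 6.59 and 6.30 in wild type. The knockout arrays agreed closely and lay above both wild type arrays, which differed from each other by nearly as much as the groups did. The difference was 0.35 ± 0.15 (SE, n = 2 per group), with a 95% interval of -0.06 to 0.76, a limma unadjusted p of 0.0775 and an adjusted p of 0.293. It was 0.56 under median scaling, with a limma unadjusted p of 0.0317 (0.43 relative to the shift), and 0.21 without wild type replicate 2. AXIN1, the constitutive scaffold, differed by 0.03 ± 0.18, with overlapping groups. GSK3B, the kinase of the complex, read 8.74 and 9.04 in knockout and 9.15 and 9.21 in wild type, a difference of -0.29 ± 0.16 (limma unadjusted p = 0.130), or -0.20 relative to the shift under median scaling. APC was detected on no array.

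CTNNB1, which encodes beta-catenin, had overlapping groups at the RNA level. Its log2 signals were 9.05 and 8.66 in knockout and 9.12 and 8.57 in wild type, so in each group replicate 1 read higher than replicate 2. The difference was 0.01 ± 0.26, with a 95% interval of -0.70 to 0.72, so changes within that range are not excluded. The test took no account of replicate number, so the gap between replicates widens this interval. RNA signals do not measure beta-catenin protein, which the pathway controls by degradation.

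LEF1, a transcription factor that binds beta-catenin and is itself a target, read lower in knockout, in the direction opposite to AXIN2. Its log2 signals were 6.41 and 6.59 in knockout and 6.91 and 6.99 in wild type, without overlap. The difference was -0.45 ± 0.13 (SE, n = 2 per group), 1.36-fold lower, with a limma unadjusted p of 0.0264 and an adjusted p of 0.197. Its other probe read the same way by -0.20, with 6.45 and 6.59 in knockout and 6.69 and 6.75 in wild type. The unadjusted limma p was under 0.05 in 6 of 14 alternative settings; it was 0.348 under median scaling, where the difference was -0.25, or -0.37 relative to the shift. Leaving out knockout replicate 1, wild type replicate 1 or wild type replicate 2 gave limma unadjusted p-values of 0.05003, 0.119 and 0.175. TCF7L2, another partner of beta-catenin, differed by -0.08 ± 0.12 and was detected on 3 arrays. TCF7L1, mostly a repressor, was detected on none. Of the 5 tested feedback targets, AXIN2 and RNF43 read higher and LEF1, ZNRF3 and DKK1 lower in knockout, and 1 of the 5 had an unadjusted p under 0.05 (20.0%, against 20.2% of all genes). The groups did not overlap in these 5, which 54.1% of all genes also showed.

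Of the 40 members, 12 had more than 1 named probe and 9 more than 1 kept probe. In 7 of those 9 the kept probes read the same way, and in ROR1 and CTNNB1 they did not. Among the 7, both kept probes of DKK3 passed the filter through wild type alone, and the dimmer LRP5 probe through knockout alone.

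**Figure D3:**
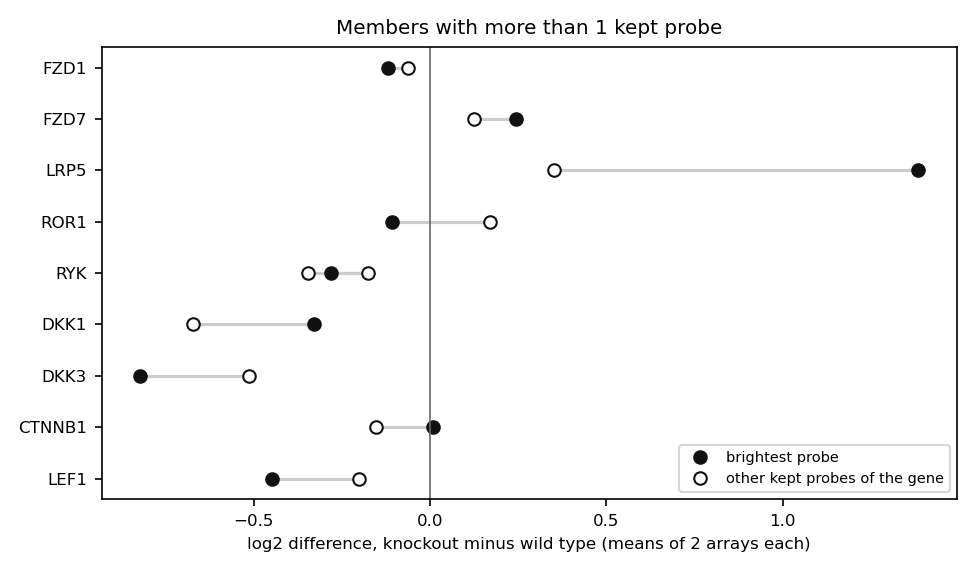
Log2 difference, knockout minus wild type (x axis), at each kept probe of the 9 WNT members with more than 1 (y axis). Filled points are the brightest probes and open points the others; LRP5 reads 1.38 and 0.35, DKK3 -0.82 and -0.51, and ROR1 and CTNNB1 fall on both sides of 0.

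The other genes of the pathway were called about as often as genes in general. Of 153 further genes in 4 lists, which share some genes, 93 were tested, and 19 had an unadjusted limma p under 0.05, 7 higher and 12 lower in knockout (20.4%, against 20.2% of all genes). After adjustment 0 of the 93 passed. The median difference was -0.02.

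Among 10 further tested ligands, receptors and secreted modulators, 1 was called, higher in knockout (10%, against 20.2% of all genes). This was PTK7, a receptor-like pseudokinase of planar cell polarity, with log2 signals of 8.42 and 8.62 in knockout and 7.20 and 6.90 in wild type. Its difference was 1.47 ± 0.17 (SE, n = 2 per group), 2.77-fold (limma adjusted p = 0.122), but its dimmer probe gave 0.18, and the mean of both gave 0.82. KREMEN2, a DKK1 co-receptor, read 6.35 and 6.92 in knockout and 5.99 and 6.08 in wild type and differed by 0.60 ± 0.23 (limma unadjusted p = 0.0571), from 0.31 without knockout replicate 2 to 0.88 without knockout replicate 1 (limma adjusted p = 0.0135). FZD3, a further Frizzled receptor, read 6.15 and 6.51 in knockout and 6.53 and 6.61 in wild type. The difference was -0.24 ± 0.17 (limma unadjusted p = 0.236), with -0.055 without knockout replicate 1 (limma unadjusted p = 0.707) and -0.42 without knockout replicate 2 (limma unadjusted p = 0.0284).

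Among 31 cytoplasmic and nuclear components, 1 was called higher and 4 lower (16.1%, against 20.2% of all genes). TLE5, a short member of the Groucho family of corepressors, read 10.81 and 11.11 in knockout and 10.22 and 10.39 in wild type, a difference of 0.66 ± 0.16 (limma unadjusted p = 0.0147, adjusted p = 0.164). TLE1, a full-length corepressor of that family, read 8.39 and 8.70 in knockout and 9.10 and 9.46 in wild type, a difference of -0.74 ± 0.20 (limma unadjusted p = 0.0191). FRAT2, which binds GSK3, read 8.12 and 8.20 in knockout and 8.94 and 8.63 in wild type, a difference of -0.62 ± 0.16. Under median scaling, with the shift included, FRAT2 was at -0.37 (limma unadjusted p = 0.107) and TLE1 at -0.51 (limma unadjusted p = 0.173). For TLE5, TLE1 and FRAT2 the unadjusted limma p was over 0.05 without at least 1 of the wild type arrays, at 0.0588 to 0.117.

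Of 28 tested genes known as beta-catenin targets in various tissues, 3 were called higher and 5 lower (28.6%, against 20.2% of all genes, made up of 9.63% higher and 10.5% lower), with a median of -0.04. CCND1, which encodes cyclin D1, read 11.66 and 11.45 in knockout and 12.76 and 13.09 in wild type, a difference of -1.37 ± 0.18 (SE, n = 2 per group), 2.59-fold lower (limma unadjusted p = 0.00119, adjusted p = 0.122). MYC, a growth regulator, read 11.16 and 11.22 in knockout and 11.87 and 11.66 in wild type, a difference of -0.57 ± 0.14 (limma unadjusted p = 0.0124), or -0.38 under median scaling with the shift included (limma unadjusted p = 0.106) and -0.47 without wild type replicate 1 (limma unadjusted p = 0.114). Its dimmer probe gave -0.88. S100A4, a calcium-binding protein linked to metastasis, read 10.31 and 10.79 in knockout and 9.33 and 8.88 in wild type. The difference was 1.45 ± 0.25 (limma unadjusted p = 0.00395). The dimmer S100A4 probe gave 2.44, and the mean of both gave 1.94. CCND1 without knockout replicate 1 or 2 differed by -1.47 and -1.27, at limma adjusted p-values of 0.00889 and 0.0455, where 29.1% and 2.71% of all genes passed. All these genes answer to other pathways as well, and their response to WNT was not measured here.

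In the polarity and calcium branches, 2 of 24 tested genes were called higher and 3 lower (20.8%, against 20.2% of all genes). The median was -0.0046. PRICKLE2, a cytoplasmic polarity protein, read 8.197 and 8.395 in knockout and 7.005 and 7.099 in wild type, a difference of 1.24 ± 0.14 (limma unadjusted p = 6.39e-04, adjusted p = 0.122). MAPK8, the kinase JNK1, read 6.507 and 6.393 in knockout and 8.005 and 8.114 in wild type, a difference of -1.61 ± 0.13 at its brightest probe (limma unadjusted p = 1.63e-04, adjusted p = 0.122), with -0.11 at its other kept probe. SCRIB, a scaffold of cell polarity, read 8.88 and 8.70 in knockout and 9.29 and 9.40 in wild type, a difference of -0.56 ± 0.14 (limma unadjusted p = 0.0133). Its mean over 3 probes differed by -0.25 (limma unadjusted p = 0.0969), and under median scaling, with the shift included, it was -0.33 (limma unadjusted p = 0.256). Without wild type replicate 1 or 2 SCRIB was at limma unadjusted p-values of 0.0721 and 0.114.

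**Figure D4:**
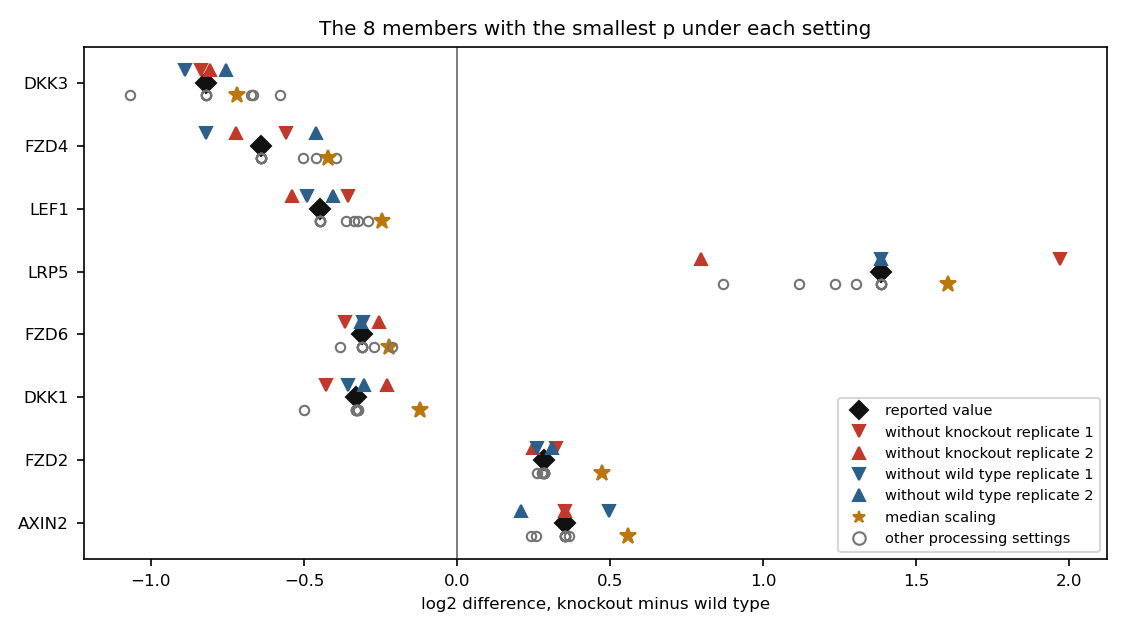
Log2 difference, knockout minus wild type (x axis), of the 8 WNT members with the smallest p (y axis): as reported (diamonds), with each array left out (triangles), under median scaling (stars) and under the other processing settings (open circles). Every value keeps the sign of the reported one. For the triangles this was fixed in advance, since knockout and wild type do not overlap in these members. LRP5 spreads from 0.80 without knockout replicate 2 to 1.97 without knockout replicate 1.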

How the data were processed

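Per the file headers, 1 table the authors deposited gives the linear signal intensity of 47230 probes on each of 4 arrays, not normalized, and a detection p-value for each. The submitters' processing notes name GenomeStudio. The authors' processed table holds log2 values; no source used here gives its normalization.

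Arrays were tied to samples by the labels. Intensities were background corrected with limma's normexp (offset 16, negative controls inferred from detection p-values), put on the log2 scale and quantile normalized (R 4.3.3, limma 3.58.1). The offset shrinks folds of dim probes. Of the probes, 19752 were detected, with p under 0.05, on 2 or more arrays and stayed in. Platform annotation, with symbols updated through the gene number, named 11311 genes, each taken at its brightest kept probe. The difference, knockout minus wild type, was tested with limma's moderated two-sided statistic, Benjamini-Hochberg adjusted over these genes. The steps were tested on simulated data. Standard errors are moderated, with 2 residual degrees of freedom among the arrays, whose number limits the precision.

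The members and lists were chosen with earlier results of these data known. Values on each array are given for the 8 members with the smallest p, the brightest member of each role, members detected on both arrays of 1 group and neither of the other (WNT7B and RNF43 as signals), and up to 3 genes with the smallest p of each further list; WNT6, FZD7, ROR1 and DVL3 were added after values were seen. Alternatives changed background correction, scaling, offset, filter, probe choice, trend, block and arrays.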

Additional observations from a re-analysis of the deposited data

How the results depend on the processing

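All 291 values of the 21 genes recomputed under the alternatives (the 8 members with the smallest p, 12 further pathway genes and MACROH2A1) kept the sign reported. In these genes knockout and wild type did not overlap, so leaving out any single array could not turn the sign. Changes to the detection filter, the trend or the block returned the same difference as reported. For these settings the kept sign is no sign of stability, nor is it for DKK3, at background in knockout. The count of genes at an unadjusted limma p under 0.05 was 4 members, 19 further pathway genes and 2282 of all genes. With no detection filter, which tested 40 members of 20042 genes, it was 2853 genes and 8 members, 3 higher and 5 lower in knockout, none of them among the 14 members added. With an intensity trend it was 2343 of 11311 genes and 7 members, 2 higher and 5 lower. Members called were 2 higher and 4 lower with an offset of 50. They were 2 higher and 2 lower on the authors' values, and 2 higher and 4 lower with a robust trend. Median scaling gave 1492 calls over all genes, 209 of them lower; 2 members higher and 1 lower; and 11 further pathway genes, 2 of them lower. Of the 26 members tested, FZD8 and ROR1 changed sign under median scaling, and relative to the shifted median FZD5, ROR1 and SFRP1 did. The cause was not tested. With the replicate number as a block, 2912 of all genes were called without adjustment, 1441 higher and 1471 lower in knockout. Among these were 2 members higher and 3 lower, and 11 further pathway genes higher and 17 lower. After adjustment 0 genes passed. Replicate 1 minus replicate 2 correlated at r = 0.443 between the groups across genes, too few pairs to treat the numbers as pairing.

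With each array left out in turn, calls after adjustment ran from 0 to 3293 over all genes, 0 to 4 among members and 0 to 24 among further pathway genes. The 4 members, DKK3, DVL3, LRP5 and ROR1, were called without knockout replicate 1, where 29.1% of all genes were; without knockout replicate 2 it was 0 members and 307 genes, and without either wild type array 0 genes. Unadjusted calls ran from 673 to 4659 over all genes (349 to 2404 higher, 308 to 2255 lower), from 1 to 8 among members (0 to 2 higher, 1 to 6 lower) and from 7 to 34 among further pathway genes (3 to 17 higher, 4 to 17 lower).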

Other observations

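The 14 members that did not enter the test had signals between 117 and 170 on every array, where the array reads little above background. With no detection filter their log2 differences ran from -0.10 for LRP6 to 0.18 for WNT6, and 0 of them had an unadjusted limma p under 0.05. WNT6 was the nearest to it, at a limma unadjusted p of 0.0533 and an adjusted p of 0.362.

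The median gap between the knockout arrays was 0.16 on the log2 scale for the 26 members and 0.25 for all 11311 genes, and between the wild type arrays 0.12 and 0.13. Knockout replicate 2 lay farther from the wild type mean than knockout replicate 1 in 15 of the 26 members and nearer in 11.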
